A study of Homo sapiens with 24 samples.

Results

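The secretory genes described here are 10 genes whose products are released by the mammary epithelium or related glands, namely the secretoglobins SCGB1D1, SCGB1D2, SCGB2A1 and SCGB2A2, and PIP, AZGP1, LCN2, LTF, SLPI and MUCL1. They were taken by symbol from a table of 18889 genes, and 9 of the 10 had a row. SCGB1D1 was not analysed here. The table covers 24 cultures of 3 established lines of human ER+ breast cancer, HCC1500, MDA-MB-175 and ZR-75-30. Each was kept for 48 hours at a glucose concentration of 5 mM (low glucose, LG) or 25 mM (high glucose, HG), with 4 replicates in each of the 6 groups. The labels name no other treatment, the treatment medium held no serum, and whether mannitol was added to these low glucose cultures to match osmolarity is not given in the sources used here. The purpose was to see how hyperglycemic conditions alter gene expression in breast cancer cells. The 10 genes were selected on these same values, with their differences between glucose conditions and between lines already known. Their values are therefore given as a description, and the statement that a gene passed the threshold is not independent evidence of a change.

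Secretoglobins are small secreted proteins that pair into dimers. SCGB2A2 encodes mammaglobin A, which is used as a marker of breast epithelium, and SCGB1D2 encodes lipophilin B, the protein that mammaglobin A binds in a complex. SCGB2A1 encodes mammaglobin B. PIP is the prolactin-inducible protein and AZGP1 the zinc-binding alpha-2-glycoprotein, both found in apocrine secretions. LCN2 is a lipocalin that withholds iron by binding bacterial siderophores, LTF is the iron-binding lactoferrin of milk, SLPI is a protease inhibitor of mucosal secretions, and MUCL1 is a small mucin-like protein of the breast.

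The 4 secretoglobin genes lie on the plus strand of chromosome 11 within 82.9 kb (GRCh37, GENCODE annotation). SCGB2A1 (ENSG00000124939) spans chr11:61976145-61981415, SCGB1D2 (ENSG00000124935) chr11:62009711-62012284 and SCGB2A2 (ENSG00000110484) chr11:62037630-62040632. The upstream sequences of the 3 measured secretoglobins are printed because the 3 genes lie side by side and yet had different values across glucose conditions. Each is the 250 bases before the RefSeq start site on GRCh38.p14, plus strand, at chr11:62208423-62208672 for SCGB2A1, chr11:62269908-62270157 for SCGB2A2 and chr11:62241989-62242238 for SCGB1D2. Capitals mark runs of at least 12 bases that also occur in the window of a close relative in the same cluster, which is SCGB2A2 for SCGB2A1, SCGB2A1 for SCGB2A2 and SCGB1D1 for SCGB1D2.
SCGB2A1: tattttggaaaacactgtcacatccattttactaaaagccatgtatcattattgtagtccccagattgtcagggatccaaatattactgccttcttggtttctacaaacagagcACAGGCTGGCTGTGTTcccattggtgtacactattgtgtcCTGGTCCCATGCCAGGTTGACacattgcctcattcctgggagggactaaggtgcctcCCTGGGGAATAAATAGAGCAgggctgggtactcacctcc
SCGB2A2: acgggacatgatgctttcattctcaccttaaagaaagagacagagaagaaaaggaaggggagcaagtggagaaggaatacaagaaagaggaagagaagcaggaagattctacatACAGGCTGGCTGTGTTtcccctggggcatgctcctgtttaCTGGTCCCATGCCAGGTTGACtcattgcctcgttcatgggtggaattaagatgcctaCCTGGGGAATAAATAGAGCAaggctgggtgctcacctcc
SCGB1D2: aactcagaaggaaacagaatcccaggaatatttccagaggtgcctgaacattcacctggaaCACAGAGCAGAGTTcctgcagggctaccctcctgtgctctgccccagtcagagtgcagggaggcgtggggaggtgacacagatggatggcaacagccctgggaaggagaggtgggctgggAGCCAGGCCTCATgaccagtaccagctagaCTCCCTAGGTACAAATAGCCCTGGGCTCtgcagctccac

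In SCGB2A1 and SCGB2A2 the 3 shared runs covered 57 of the 250 bases, the longest had 21 bases, and they began 136 bases before each start site. The 2 windows were identical at 68.8% of their 240 aligned bases. SCGB1D1 and SCGB1D2 were identical at 85.7% of 230 aligned bases, with 55 bases in shared runs. SCGB2A1 and SCGB1D2, from the other branch of the family, were identical at 60.0% of 230 aligned bases and shared no run of 12 bases. The other pairs across branches were at 58.4% to 64.3%, the highest being SCGB1D1 with SCGB2A1 over 213 aligned bases. Close relatives were thus more alike upstream than genes of different branches, by a narrow margin for SCGB2A1 and SCGB2A2.

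The 3 short motifs fixed for the search were looked for on both strands in 300-base windows, from 250 bases before to 50 after the RefSeq start site. The set of windows used here held 11 windows of 9 of the 10 genes and lacked SLPI. TATAAA, the consensus TATA box, was in 11.5% of all 35116 windows, AGGTCA, an estrogen receptor half-site, in 13.8% and TGTTCT, a half-site of steroid receptors, in 14.8%. No secretoglobin window held any of these letters. PIP had TGTTCT 198 bases before its start site on the opposite strand, and 2 of the 3 LTF windows held TGTTCT. In 1 of them TATAAA was also found, on the opposite strand and downstream of the start site, at base 19. For LCN2, a gene known to be regulated by NF-kappaB, the 250 bases before the start site (chr9:128149203-128149452, plus strand) are printed, with capitals on GGGAATGTCC, a kappaB-type sequence found 176 bases before the start site. This sequence was searched for after the window had been read, on both strands, and was in 0.0883% of all windows.
LCN2: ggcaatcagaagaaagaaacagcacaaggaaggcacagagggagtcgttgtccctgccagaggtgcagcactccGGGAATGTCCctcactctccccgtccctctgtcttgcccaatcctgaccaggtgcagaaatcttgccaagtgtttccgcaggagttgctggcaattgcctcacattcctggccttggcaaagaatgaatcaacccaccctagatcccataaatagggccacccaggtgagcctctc

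The 24 libraries held 9140024 to 17998819 reads in genes, and 1 read was worth a value of 0.3176 to 0.7635, so that 3 reads, taken as the floor of detection, correspond to a value of 0.953 to 2.29. This floor covers counting error only. High glucose replicate 3 of HCC1500 stood apart: its mean correlation with the other replicates of its group was 0.911, against at least 0.989 in the other 23 cultures (without counting this one), and its values were shifted by transcript length. Among 284 genes with transcripts under 600 bases and a mean of at least 10, its values were higher than the mean of the other 3 replicates by a median of 1.15 on the log2 scale. Of the 9 measured secretory genes, 6 have transcripts under 600 bases, so HCC1500 is given without this replicate first. TXNIP, a glucose-responsive gene used to check the labels, was higher at high glucose in each line (log2 change 0.99 ± 0.03, SE, in HCC1500, 0.39 ± 0.04 in MDA-MB-175 and 0.76 ± 0.04 in ZR-75-30), as was ARRDC4 (0.37 ± 0.12, 0.41 ± 0.08 and 0.41 ± 0.11). The defining luminal markers were present in each line, with a summed value of 8 markers from 30778 to 64553. Their levels were uneven: in ZR-75-30 at low glucose KRT8, KRT18 and KRT19 had means of 18786, 15720 and 9921. CDH1 had a low glucose mean of 55.6 in ZR-75-30, 6498.5 in MDA-MB-175 and 8223 in HCC1500. The 4 basal markers summed to at most 65.3 and the 6 fibroblast markers to at most 295. For 3 endothelial and adipocyte markers the sum was at most 83.1, and for 2 leukocyte markers at most 43.9. Nothing in the labels says whether replicates came from separate cultures, so the spread between them may be technical.

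Each line had its own set of abundant secretory transcripts (the plot of values by culture). At low glucose and per kilobase of transcript, ZR-75-30 was led by SCGB2A2 at 240872 ± 13506 (SD, n = 4), SCGB1D2 at 14562 ± 253, AZGP1 at 2047 ± 82.8 and SCGB2A1 at 1593 ± 56.0. In MDA-MB-175 the order was SCGB2A2 at 5588 ± 65.6 per kilobase, MUCL1 at 1652 ± 97.9, SLPI at 942 ± 48.6, PIP at 721 ± 36.0, AZGP1 at 620 ± 41.6, SCGB1D2 at 334 ± 20.6 and LCN2 at 184 ± 7.04. HCC1500 had MUCL1 at 375 ± 17.7 per kilobase, SLPI at 60.1 ± 7.48 and AZGP1 at 42.6 ± 4.69, and its mean values of SCGB2A1, SCGB1D2, PIP and LCN2 were under the floor. The ranges of neighbors in these orders did not overlap. In bulk RNA, fewer cells that express a gene and less RNA per cell cannot be told apart.

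**Figure D1:**
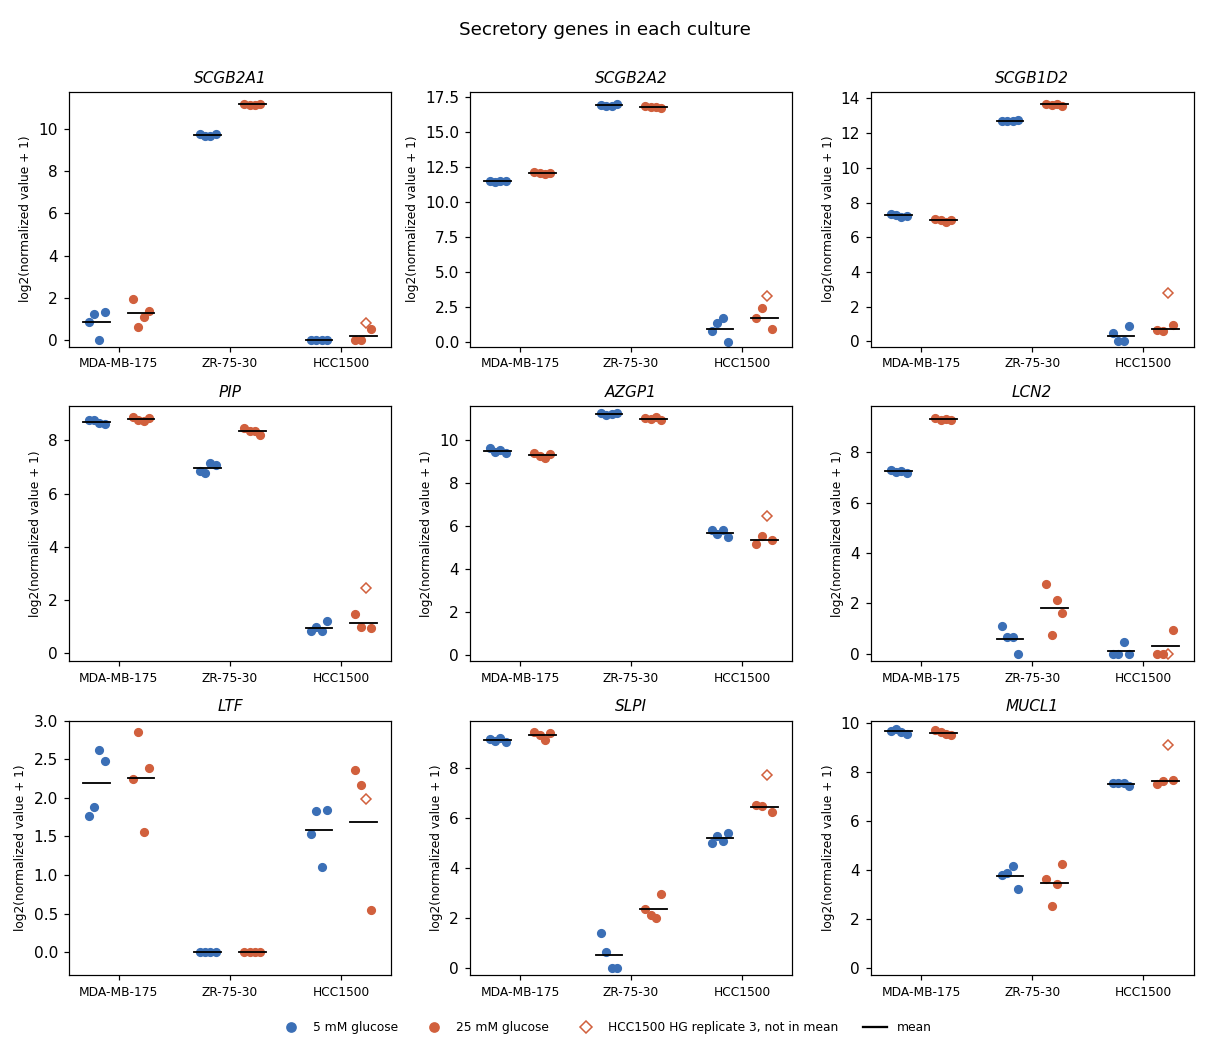
Log2(normalized value + 1) of 9 secretory genes in each culture, by line, with low glucose in blue and high glucose in orange. Points are cultures, black bars are means of the log2 values, and the open diamond is high glucose replicate 3 of HCC1500, which is left out of the mean. SCGB2A1 was at 804 to 860 in ZR-75-30 at low glucose, and LCN2 had a mean of 151 in MDA-MB-175 against 0.562 in ZR-75-30.

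SCGB2A2 took 1.59 to 1.81% of the reads of each low glucose ZR-75-30 culture, where it ranked first or second among genes in the table, and 1.42 to 1.56% at high glucose. Its values in ZR-75-30 at low glucose were 122745, 115135, 118637 and 131009, against 2875, 2799, 2820 and 2816 in MDA-MB-175, a ratio of means of 43.1. In HCC1500 they were 0.760, 1.59, 2.30 and 0, which lies around the floor. For SCGB1D2 the ratio of ZR-75-30 to MDA-MB-175 was 43.6, nearly that of its partner. SCGB2A1 had values of 860, 804, 804 and 847 in ZR-75-30, was at most 1.53 in MDA-MB-175 and was at 0 in the 4 HCC1500 cultures, so that ZR-75-30 was at least 731-fold higher than HCC1500, taking the mean floor of 3 reads per HCC1500 culture.

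PIP was 3.36-fold higher in MDA-MB-175 than in ZR-75-30 and AZGP1 3.30-fold lower, and PIP stayed under the floor in HCC1500 at a mean of 0.943. MUCL1 had its highest mean in MDA-MB-175 (801 ± 47.5), an intermediate one in HCC1500 (182 ± 8.59) and 13.0 ± 3.58 in ZR-75-30. SLPI had means of 561 ± 28.9 in MDA-MB-175 and 35.8 ± 4.46 in HCC1500, while the ZR-75-30 cultures were at 1.66, 0.569, 0 and 0. LTF was close to the floor throughout, with 2.41 to 5.12 in MDA-MB-175, 1.15 to 2.58 in HCC1500 and 0 in the 8 ZR-75-30 cultures. In a limma fit of the 12 low glucose cultures with Benjamini-Hochberg adjustment over 17739 genes, 9 of the 9 passed an adjusted p of 0.05 between MDA-MB-175 and ZR-75-30, 9 between MDA-MB-175 and HCC1500, and 8 between ZR-75-30 and HCC1500, where LCN2 was under the floor in both. The corresponding shares of all genes were 73.1%, 80.6% and 80.4%. SCGB2A1 between MDA-MB-175 and HCC1500 passed although its means, 0.917 and 0, were under the floor. It met the filter on low values in this fit only with the ZR-75-30 cultures. LTF no longer passed between MDA-MB-175 and HCC1500 under several alternatives.

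In MDA-MB-175, high glucose went with higher LCN2 and SCGB2A2 and with slightly lower SCGB1D2 and AZGP1. LCN2 had values of 159, 150, 151 and 144 at low glucose and 664, 628, 641 and 622 at high glucose. The 2 ranges lay far apart, and LCN2 rose 4.23-fold (log2 change 2.07 ± 0.05, SE). SCGB2A2 was at 2875, 2799, 2820 and 2816 at low glucose and at 4544, 4323, 4128 and 4317 at high glucose. Its ranges did not overlap either, and it rose 1.53-fold (log2 change 0.61 ± 0.04).

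SCGB1D2, which encodes the partner of mammaglobin A, went the other way in MDA-MB-175. It had values of 163, 155, 140 and 150 at low glucose and 131, 127, 118 and 126 at high glucose, without overlap, and fell by 0.27 ± 0.07 on the log2 scale. AZGP1 was at 788, 706, 757 and 679 at low glucose and at 670, 608, 582 and 649 at high glucose, and fell by 0.22 ± 0.06. SLPI was at 575, 543, 595 and 532 at low glucose and at 693, 638, 563 and 679 at high glucose. The SLPI ranges overlapped, and its log2 change of 0.19 ± 0.06 passed the threshold but missed it without low glucose replicate 2 (0.18) or without high glucose replicate 1, 2 or 4 (0.16, 0.20 and 0.17).

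PIP and MUCL1, which were abundant in MDA-MB-175, had log2 changes of 0.10 ± 0.05 and -0.06 ± 0.05 that did not pass. LTF (0.08 ± 0.33) and SCGB2A1 (values of 0 to 1.53 at low and 0.568 to 2.91 at high glucose) were too near the floor to read. Thus 5 of 9 genes passed an adjusted p of 0.05, 3 higher and 2 lower, and 4 had no overlap between conditions. Over the 17029 genes tested in MDA-MB-175, 25.7% passed, 11.9% higher and 13.7% lower, and 26.6% had no overlap. The median log2 change was 0.10 for the 9 genes and -0.02 for all genes.

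In ZR-75-30 the secretoglobins with the lower levels were higher at high glucose, while SCGB2A2 was not. SCGB2A1 had values of 860, 804, 804 and 847 at low glucose and 2339, 2248, 2230 and 2288 at high glucose. It rose 2.75-fold (log2 change 1.46 ± 0.04) with ranges far apart. SCGB1D2 was at 6641, 6557, 6524 and 6782 at low glucose and at 13217, 12602, 13302 and 12298 at high glucose. It rose 1.94-fold (log2 change 0.96 ± 0.04), again without overlap.

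PIP, the prolactin-inducible protein, was at 114, 107, 141 and 134 in ZR-75-30 at low glucose and at 349, 329, 328 and 293 at high glucose, a rise of 2.62-fold (log2 change 1.39 ± 0.08). AZGP1 was at 2480, 2291, 2394 and 2508 at low glucose and at 2091, 2075, 2159 and 1950 at high glucose, and fell by 0.22 ± 0.04 on the log2 scale, as in MDA-MB-175. SCGB2A2 was at 117513, 109031, 108166 and 103978 at high glucose, a range that overlapped that at low glucose given above. Its log2 change of -0.15 ± 0.06 passed, but missed the threshold with a pseudocount of 5, without the filter on low values, and without low glucose replicate 1, 3 or 4 (-0.15, -0.16 and -0.12) or high glucose replicate 2 or 3 (-0.15 each).

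LCN2 and SLPI also passed in ZR-75-30, at values near the floor. LCN2 was at 1.11, 0.569, 0.570 and 0 at low glucose and at 5.73, 0.675, 3.40 and 2.06 at high glucose, with overlap. Its log2 change of 1.22 ± 0.45 missed the threshold with a pseudocount of 0.1 or with DESeq2, and without low glucose replicate 2, 3 or 4 (1.24, 1.24 and 1.02) or high glucose replicate 1 or 3 (0.90 and 1.11). SLPI was at 1.66, 0.569, 0 and 0 at low glucose and at 4.17, 3.38, 2.97 and 6.85 at high glucose, without overlap (log2 change 1.85 ± 0.41). The log2 changes of both depend on the pseudocount and are not fold changes of the RNA. MUCL1 (-0.31 ± 0.32) did not pass. In all, 7 of the 8 genes tested passed, 5 higher and 2 lower, and 5 had no overlap. LCN2 and SLPI are among the 5 higher, and SLPI is among the 5 without overlap. Both met the filter on low values only with their high glucose cultures, so their place in these counts is no support for a change. Of the 15834 genes tested in ZR-75-30, 46.0% passed, 23.4% higher and 22.7% lower, and 42.0% had no overlap. The median log2 change of the 8 genes was 1.09, against 0.01 over all genes. This median falls between SCGB1D2 (0.96) and LCN2 (1.22), and so rests in part on the near-floor changes of LCN2 and SLPI.

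**Figure D2:**
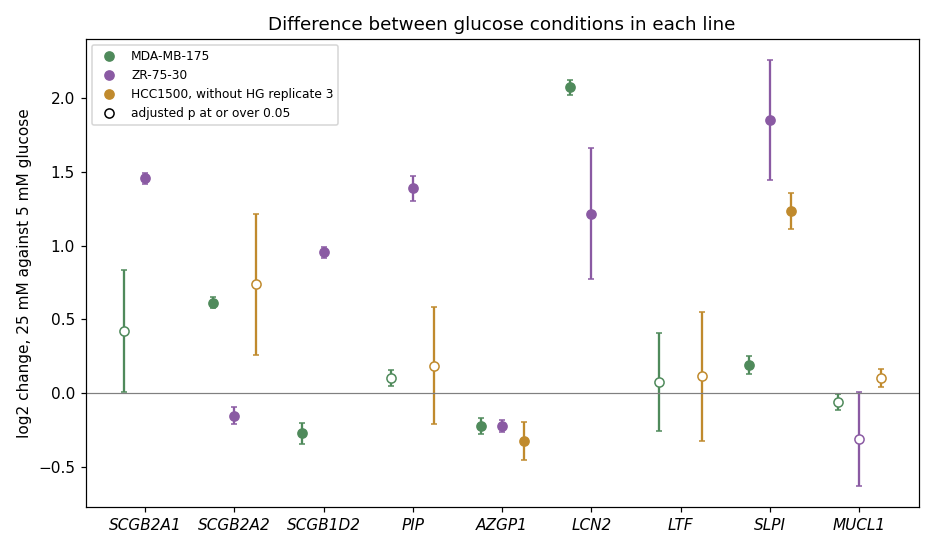
Log2 change between high and low glucose (y axis, positive where high glucose was higher) of each secretory gene in each line, with HCC1500 shown without high glucose replicate 3. Bars are standard errors from limma, and filled points passed an adjusted p of 0.05. LCN2 in MDA-MB-175 (2.07) and SCGB2A1 in ZR-75-30 (1.46) had small errors, and AZGP1 lay under 0 in each line.

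The ratio of the transcripts for mammaglobin A and its partner lipophilin B was about the same in both lines at low glucose and parted at high glucose. Per kilobase, SCGB2A2 over SCGB1D2 was 15.9, 16.3, 18.1 and 16.9 in the low glucose MDA-MB-175 cultures, and 16.6, 15.8, 16.4 and 17.4 in those of ZR-75-30. At high glucose the ratio was 31.1, 30.7, 31.5 and 30.8 in MDA-MB-175. In ZR-75-30 it was 7.995, 7.780, 7.312 and 7.603. The means were 16.8 ± 0.965 and 31.0 ± 0.363 (SD, n = 4) in MDA-MB-175 and 16.5 ± 0.657 and 7.67 ± 0.289 in ZR-75-30. A ratio within a culture does not depend on how the culture was scaled. In ZR-75-30, SCGB2A2 over SCGB2A1 went from 151 ± 5.69 to 49.5 ± 2.04, and SCGB1D2 over SCGB2A1 from 9.15 ± 0.224 to 6.46 ± 0.277. The longest stretch of identical bases between the SCGB2A1 and SCGB2A2 transcripts is 29 bases and between SCGB1D1 and SCGB1D2 it is 44 bases, and whether reads were shared between relatives was not tested.

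**Figure D3:**
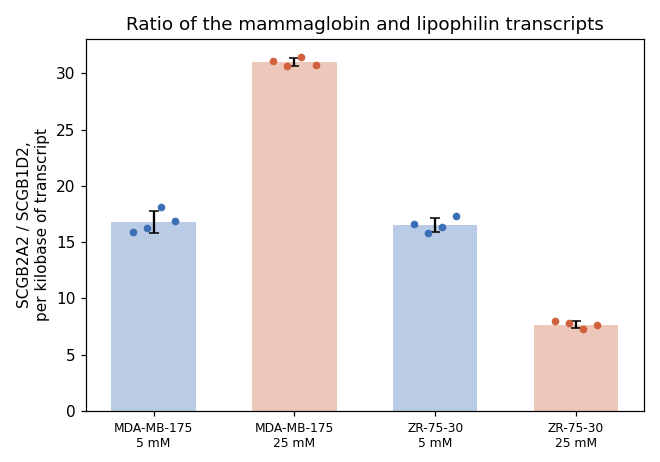
Ratio of SCGB2A2 to SCGB1D2 per kilobase of transcript in each culture of MDA-MB-175 and ZR-75-30 at 5 and 25 mM glucose. Bars start at 0 and show means, error bars are SDs of 4 cultures, and points are cultures. The ratio was 16.8 and 16.5 at low glucose in the 2 lines and 31.0 and 7.67 at high glucose.

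Along the cluster, SCGB2A2 had the highest and SCGB2A1 the lowest level per kilobase of the 3 measured genes in ZR-75-30 and MDA-MB-175, at both glucose concentrations. In ZR-75-30 the means per kilobase at high glucose were 4378 ± 93.0 for SCGB2A1, 28252 ± 1066 for SCGB1D2 and 216743 ± 11214 for SCGB2A2. In MDA-MB-175 they were 2.99 ± 1.91, 276 ± 12.4 and 8553 ± 336.

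**Figure D4:**
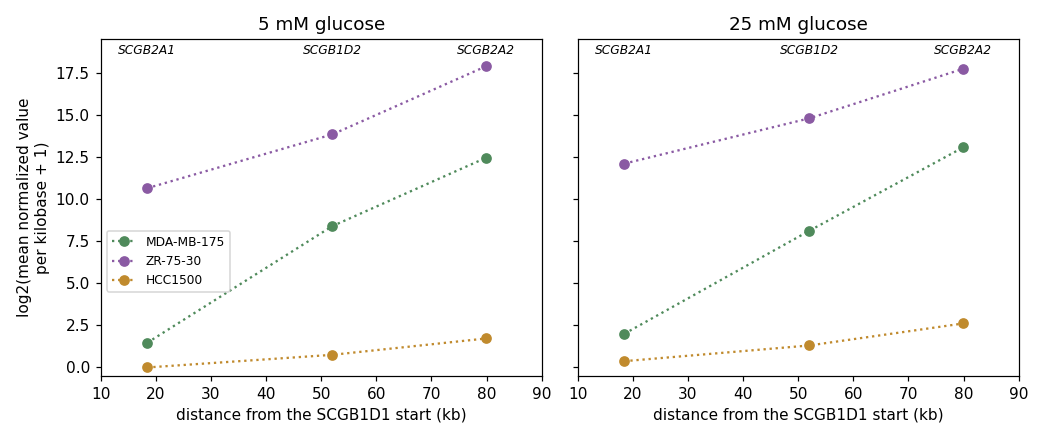
Mean normalized value per kilobase (log2 of the value + 1) of SCGB2A1, SCGB1D2 and SCGB2A2 against the distance of each gene from the SCGB1D1 start, in kb, at low and high glucose. Dotted lines join the points of a line, and HCC1500 at high glucose is without replicate 3. Levels rise from SCGB2A1 at 18.5 kb to SCGB2A2 at 79.9 kb in the lines other than HCC1500. In HCC1500 the means of SCGB2A1 and SCGB1D2 were under the floor and SCGB2A2 was near it, so no order can be read there.

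In HCC1500 without high glucose replicate 3, SLPI was the secretory gene whose ranges did not overlap. It was at 31.5, 37.5, 33.0 and 41.3 at low glucose and at 91.4, 89.5 and 75.7 at high glucose, a rise of 2.39-fold (log2 change 1.24 ± 0.12) without overlap. AZGP1 was at 54.7, 48.0, 54.8 and 43.5 at low glucose and at 34.8, 44.8 and 40.2 at high glucose. Its ranges overlapped, and its log2 change of -0.33 ± 0.13 passed, but missed the threshold under 12 of the alternatives tried, with a value of -0.05 once replicate 3 was included and of -0.28 to -0.35 without low glucose replicate 1, 2 or 3 and -0.23 or -0.33 without high glucose replicate 1 or 4. MUCL1 was at 185, 186, 186 and 169 at low glucose and at 182, 199 and 204 at high glucose (log2 change 0.10 ± 0.06), which did not pass on the deposited scale and did, at 0.22, when the cultures were scaled by median-of-ratios factors or tested with edgeR or DESeq2. On the deposited scale the median log2 change of all genes in HCC1500 was -0.12, and under median-of-ratios scaling -0.01.

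SCGB2A2 (log2 change 0.74 ± 0.48), PIP (0.19 ± 0.40) and LTF (0.11 ± 0.44) were near the floor in HCC1500 and did not pass, and SCGB2A1, SCGB1D2 and LCN2 were too low to test. Of the 6 genes tested, 2 passed, 1 higher and 1 lower, and 1 had no overlap, whereas 58.5% of all 16235 genes passed, 20.9% higher and 37.7% lower, and 58.1% had no overlap. The median log2 change of the 6 genes was 0.15. The low glucose cultures of HCC1500 held 13190982 to 17998819 reads and the high glucose cultures 9423472 to 12140912. The part of this difference in depth in the HCC1500 values was not tested.

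With high glucose replicate 3 included, 1 of 7 genes tested in HCC1500 passed, against 20.5% of all genes. That gene was SLPI, with a log2 change of 1.56 ± 0.30. Replicate 3 had the highest high glucose value of the group for SLPI (213), MUCL1 (539), AZGP1 (87.6), SCGB2A2 (8.91), SCGB1D2 (5.94) and PIP (4.46). Relative to the mean of the other 3, it was 2.49-fold higher for SLPI, 2.76-fold for MUCL1 and 2.20-fold for AZGP1. Their log2 excess in this culture lay at the 92.5th, 95.8th and 87.0th percentile of 12351 genes with a mean of at least 10.

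Differences in the glucose response between lines were read from a limma fit of 23 cultures with an F test. SCGB2A1, SCGB1D2, PIP, LCN2 and SLPI passed, 5 of 9 genes against 48.6% of all 18127. The log2 change of PIP was lower in MDA-MB-175 than in ZR-75-30 by a difference of -1.29 ± 0.16, and that of SCGB1D2 by -1.23 ± 0.18. For LCN2 the change in MDA-MB-175 exceeded that in HCC1500 by 1.88 ± 0.45, but LCN2 was under the floor in HCC1500, and its call was lost with a pseudocount of 0.1, with edgeR and with DESeq2. The same 3 alternatives ended the call of SCGB2A1, which was near or under the floor in MDA-MB-175 and HCC1500. The SCGB1D2 call was lost with a pseudocount of 0.1.

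SCGB2A2 did not pass in that fit, but did with a pseudocount of 5, with CPM scaling, with edgeR or DESeq2, and without low glucose replicate 3 or high glucose replicate 4 of HCC1500, where its values lay near the floor. In a fit of the 16 MDA-MB-175 and ZR-75-30 cultures, added after the data had been seen, its change was higher in MDA-MB-175 by 0.77 ± 0.06 and passed, as did SCGB2A1, SCGB1D2, PIP and SLPI, 5 of 9 genes against 24.3% of all genes. The difference in AZGP1 between the 2 lines was 0.00 ± 0.10 in the fit of 23 cultures, with a 95% interval of -0.21 to 0.21.

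Genes that regulate or accompany the secretory genes were read from lists written with earlier results of these data known. The counts of each list below stand beside the shares of all genes. Of all genes, 11.9% were called higher and 13.7% lower in MDA-MB-175, and 23.4% and 22.7% in ZR-75-30. In HCC1500 these shares were 20.9% and 37.7%. Whether a list differed from these shares was not tested. Of 14 hormone and lineage regulators, 2 rose and 6 fell in MDA-MB-175 among 12 tested, 2 rose and 6 fell in ZR-75-30 among 14, and 2 rose and 7 fell in HCC1500 among 12. SPDEF, a factor of secretory epithelia, had the largest change in HCC1500 (1687 ± 93.4 to 911 ± 21.2, SD, log2 change -0.89 ± 0.04, SE, adjusted p = 1.00e-12). ELF5, a regulator of milk-secreting cells that was picked after its values were seen, rose in MDA-MB-175 from 236 ± 22.4 to 343 ± 22.0 (log2 change 0.54 ± 0.07, adjusted p = 2.74e-05) and had means of at most 1.26 in the other lines.

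Of 12 inflammatory regulators, 3 rose and 4 fell in MDA-MB-175 and in ZR-75-30, and 3 rose and 3 fell in HCC1500. CEBPA, a factor of the C/EBP family, had the largest change in MDA-MB-175 (log2 change -1.77 ± 0.48, adjusted p = 0.0129) and ZR-75-30 (-1.48 ± 0.54, adjusted p = 0.0311), at means of 9.18 and 9.91 at low glucose. IL17RC, a subunit of the IL-17 receptor, had it in HCC1500 (410 to 217, -0.92 ± 0.05, adjusted p = 2.09e-11). RELB, an NF-kappaB subunit picked after its values were seen, rose in each line, by 0.47 ± 0.11 on the log2 scale in HCC1500, 0.66 ± 0.15 in MDA-MB-175 and 1.05 ± 0.16 in ZR-75-30. The subunit NFKB1 did not move in 1 direction: its log2 change was -0.30 ± 0.07 in MDA-MB-175 and -0.51 ± 0.06 in ZR-75-30, where it fell, and 0.36 ± 0.06 in HCC1500, where it rose. NFKBIZ, a regulator of LCN2 transcription, did not pass in any of the lines, with a log2 change of -0.13 ± 0.13 in HCC1500, 0.36 ± 0.22 in ZR-75-30 and -0.21 ± 0.15 in MDA-MB-175.

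Of 12 milk proteins 6 had rows. PLIN2, which coats the milk fat droplet, was the 1 gene that rose in MDA-MB-175 (150 to 215, log2 change 0.52 ± 0.06, adjusted p = 1.58e-05). In ZR-75-30, 3 of 4 tested rose, led by CEL, the bile salt-stimulated lipase (9.57 to 55.4, 2.40 ± 0.18, adjusted p = 3.55e-09). In HCC1500, 1 rose and 1 fell of 5, and MFGE8, a milk fat globule protein, changed most (91.4 to 57.3, -0.66 ± 0.10, adjusted p = 2.67e-05).

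Of 19 other lipocalins 6 had rows. In MDA-MB-175, 1 of 6 rose, LCN12 (1.95 to 4.59, log2 change 0.97 ± 0.33, adjusted p = 0.0379). AMBP, a plasma lipocalin, had the largest change in ZR-75-30 (-0.74 ± 0.21, adjusted p = 0.00622), where 1 rose and 1 fell of 5, and in HCC1500 (-1.11 ± 0.34, adjusted p = 0.00906), where 1 rose and 2 fell of 4. WFDC2, the 1 gene with a row among 14 other WAP-domain inhibitors, the family of SLPI, rose in MDA-MB-175 (18.2 to 28.4, 0.64 ± 0.19, adjusted p = 0.0223) and was at 0 in the ZR-75-30 cultures. The 6 other secretoglobins on the list were not analysed here.

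Of 10 genes on the list of receptors and partners, 6 had rows. In MDA-MB-175, 0 of the 6 passed an adjusted p of 0.05 in limma, 4 had an unadjusted p under 0.05, 0 passed with edgeR and 1 with DESeq2, which gave no adjusted p for 1 of them. Their log2 changes there ranged from -0.63 ± 0.24 for LRP2 (adjusted p = 0.0687) to 0.89 ± 0.44 for MMP9 (adjusted p = 0.16), which had at most 4 reads in any culture of the line. In ZR-75-30, 1 rose and 2 fell, with FN1, fibronectin, changing most (453 to 264, -0.77 ± 0.07, adjusted p = 3.12e-08). In HCC1500, 1 rose and 3 fell, with SLC22A17, a receptor proposed for LCN2, changing most (795 to 320, -1.31 ± 0.05, adjusted p = 1.66e-13).

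Of 8 luminal markers, 1 rose and 4 fell in MDA-MB-175, 1 rose and 5 fell in ZR-75-30, and 3 rose and 5 fell in HCC1500. The largest changes were those of ESR1 in MDA-MB-175 (335 to 258, log2 change -0.38 ± 0.05, adjusted p = 2.67e-05), KRT19 in ZR-75-30 (9921 to 5921, -0.75 ± 0.06, adjusted p = 8.32e-09) and GATA3 in HCC1500 (3571 to 2666, -0.42 ± 0.04, adjusted p = 1.89e-08). The summed luminal level was 49036 to 53679 at low and 34942 to 40806 at high glucose in ZR-75-30, without overlap. In HCC1500 without high glucose replicate 3 it was 32482 to 34196 and 30778 to 30899, also without overlap. In MDA-MB-175 the ranges overlapped, at 54270 to 64553 and 57753 to 62591. The part of the luminal level in the secretoglobin values was not tested.

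Of 4 basal markers with rows, ACTA2 was the 1 that rose in ZR-75-30 (6.57 to 26.7, log2 change 1.90 ± 0.26, adjusted p = 7.98e-06) and in HCC1500 (5.72 to 12.9, 1.03 ± 0.24, adjusted p = 0.00108). CD68, a leukocyte marker that also sits in lysosomes and 1 of 2 of its list with rows, rose in MDA-MB-175 (2.53 to 6.82, 1.18 ± 0.37, adjusted p = 0.0288), ZR-75-30 (5.66 to 37.7, 2.55 ± 0.21, adjusted p = 1.26e-08) and HCC1500 (0.943 to 2.82, 0.95 ± 0.38, adjusted p = 0.0383). Among 6 fibroblast markers 1 rose and 1 fell in MDA-MB-175 and in HCC1500, and LUM changed most in MDA-MB-175 (21.9 to 58.7, 1.37 ± 0.15, adjusted p = 4.41e-06) and in HCC1500 (29.5 to 46.0, 0.63 ± 0.14, adjusted p = 0.00057). The summed fibroblast level was 78.6 to 117 in ZR-75-30 and 222 to 295 in HCC1500. Of 3 endothelial and adipocyte markers, 1 rose and 1 fell in MDA-MB-175, with CDH5 changing most (18.8 to 29.2, 0.61 ± 0.16, adjusted p = 0.0102). The part of these markers in the values of the secretory genes was not tested.

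For each secretory gene with a group mean of at least 10, the gene with the most similar pattern was sought among 13280 genes over 23 cultures by Pearson's r of the log2 values. The cultures fall into 6 groups and differ mostly by line, so these values are a description. The nearest were EIF3H for SCGB2A1 (r = 0.998), PAPSS2 for SCGB2A2 (0.997), PCGF2 for SCGB1D2 (0.996), SMO for PIP (0.997), HOXB7 for AZGP1 (0.997), L1CAM for LCN2 (0.991), MANBA for SLPI (0.993) and TENM4 for MUCL1 (0.992). L1CAM had means of 305 and 790 in MDA-MB-175 at low and high glucose, and at most 3.48 in the other lines.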

How the data were processed

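RNA-seq of 24 cell line cultures was analysed from 1 table of normalized values (unit signal). The deposited signal values were made by the authors by dividing whole reads per gene by 1 factor per culture, as the low values show. The submitters' processing notes name edgeR and hg38, whereas the study's methods describe hg19 for its tumors, and the counting tool and the factor are not given in the sources used here. Coordinates come from GENCODE release 44 lifted to GRCh37 and per-kilobase levels use the canonical transcript. Values per culture summed to 5559394 to 7594840. A gene was tested if it reached 0.5 in 4 or more of the fitted cultures. Tests were run on log2(value + 1) with limma 3.58.1 in R 4.3.3 (trended variance, Benjamini-Hochberg adjustment over all genes, threshold 0.05). HCC1500 was fitted without high glucose replicate 3 (7 cultures). Fold changes are ratios of means, and log2 changes on the log2(value + 1) scale understate those of low genes.

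The genes and lists were chosen with earlier results of these data known. Beside the secretory genes, the text names the called gene with the largest change in each list and line, the most similar gene, and TXNIP and ARRDC4. The result of 1 gene named by this rule is not reported here. Replicate numbers were checked for pairing and showed no strong pairing, and weak pairing was not excluded. Alternatives were other pseudocounts, no filter, CPM and median-of-ratios scaling, edgeR 4.0.16 and DESeq2 1.42.0 on recovered reads, a replicate block, and leaving out each replicate. The limma fits within lines, between lines at low glucose and of 23 cultures were tested on simulated data. Changes were placed only in genes well above the floor, so changes in genes near the floor were not covered. Annotation by gene ID covered 96.3% of genes. Sequence comparisons used Biopython 1.88.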

Additional observations from a re-analysis of the deposited data

Results flagged for a closer look

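In 43 groups of 4 cultures with a measurable secretory gene, 4 values lay far from the other 3 by Dixon's test, where chance gives about 1 in 20. They were SCGB1D2 (5.94), SLPI (213) and MUCL1 (539) in high glucose replicate 3 of HCC1500, the culture that stood apart by transcript length, and MUCL1 in low glucose replicate 4 of HCC1500 (169).

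The glucose response differed between lines by the F test for 5 of 9 secretory genes, against 48.6% of all 18127 genes. The largest difference in log2 change was 1.28 for SCGB2A1 (ZR-75-30 minus HCC1500), -1.23 for SCGB1D2, -1.29 for PIP and -1.66 for SLPI (MDA-MB-175 minus ZR-75-30), and 1.88 for LCN2 (MDA-MB-175 minus HCC1500). For SCGB2A1, SLPI and LCN2, 1 of the lines in the difference was at or under 3 reads at low glucose.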

How the results depend on the processing

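In MDA-MB-175 the number of genes that passed was 5, and in ZR-75-30 it was 6 to 7, under the alternatives that kept all replicates, and 8 to 9 across the comparisons of lines. In HCC1500 it was 2 and became 1 without the filter on low values, with CPM scaling, the replicate block or all 8 cultures. It was 1 to 2 when single replicates were left out. Each drop to 1 was through the loss of AZGP1. With median-of-ratios scaling, edgeR or DESeq2 the count stayed at 2, but AZGP1 (-0.21) missed the threshold and MUCL1 passed instead. The count of genes with differing response was 5 and became 2 with a pseudocount of 0.1. LTF turned direction in HCC1500 with a pseudocount of 0.1 (-0.01) and with the replicate block (-0.04), and ranged from -0.22 to 0.68 when single replicates were left out, from -0.12 to 0.31 in MDA-MB-175. MUCL1 in ZR-75-30 ranged from -0.57 to 0.00. The causes were not tested.

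Same-numbered deviations correlated weakly, at -0.0399 to 0.164 in MDA-MB-175, 0.0191 to 0.0713 in ZR-75-30 and -0.0494 to 0.0497 in HCC1500. In these lines 2 of 4, 1 of 4 and 2 of 3 numbers correlated best with their own. The mean for same numbers was above that for other numbers in each line (0.0504 against -0.0167, 0.0424 against -0.0142 and 0.00898 against -0.00299). Weak pairing was therefore not excluded. With the block, 1 gene passed in HCC1500, 5 passed in MDA-MB-175 and 7 did in ZR-75-30. LTF between MDA-MB-175 and HCC1500 at low glucose (0.61) no longer passed with it. The share of higher among all called genes in HCC1500 was 35.7% on the deposited scale and 50.5% with median-of-ratios scaling. The fit of 16 cultures was chosen after seeing the data. Values near or under 3 reads limit SCGB2A1 outside ZR-75-30, LCN2 outside MDA-MB-175, and LTF. They also limit SLPI in ZR-75-30, and SCGB2A2, SCGB1D2 and PIP in HCC1500.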
